A study of Mus musculus with 9 samples.

Results

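The cell cycle and proliferation genes described here were 43 genes picked by symbol from an expression table of 22337 genes, and each symbol was found once. They comprised 7 genes that drive or carry the G1 phase (cyclins, their kinases and the transcription factor E2f1), 3 inhibitors of cyclin-dependent kinases, 12 genes of DNA replication and nucleotide supply, and 21 genes of G2 and mitosis. The RNA came from mouse retinas at postnatal day 28 (P28), in 3 groups of 3 libraries. WT retinas were from C57 BL/6J mice that were not treated. NS retinas were from rd10 mice, a line with inherited rod degeneration caused by a mutation of the rod phosphodiesterase gene Pde6b, which received normal saline in both eyes on P14 and P21. MSC-EVs retinas were from rd10 mice that received, in the same 1 µl volume and on the same days, extracellular vesicles shed by human umbilical cord mesenchymal stem cells. The mutation was thus common to the NS and MSC-EVs groups. The paper states that rd10 littermates were given vesicles or saline, but the labels do not say which libraries came from the same litter. WT differed from both in genotype, in the supplier of the mice that the paper names, and in having had no injection. The labels number the libraries of a group from 1 to 3 but do not say whether these were separate animals, so the p-values below measure the spread between these libraries, which may be technical.

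A cell enters division when D-type cyclins with Cdk4 or Cdk6, and then cyclin E with Cdk2, release E2F factors that switch on the replication genes. Mitotic genes come on later, in G2, under other factors that act through CCAAT boxes and a short element called CHR, and many of their products are destroyed as the cell divides. The retina of a mouse of this age is almost wholly post-mitotic: its neurons are long since born, and the cells that can still divide are glia, microglia, cells of the vessel wall and blood cells that enter. Several genes of this set also have uses in cells that do not divide, such as the cyclin D3, p27 (Cdkn1b) and Pcna.

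The depth was 19491717 to 62532343 counts per library, and MSC-EVs replicate 3 was the deepest. The rod markers behaved as the labels say: their 10 genes summed to 75700 to 81100 CPM (counts scaled to library size by TMM) in WT and to 15300 to 22400 in the 6 rd10 libraries. Libraries 1 and 2 of MSC-EVs stood apart in one respect, with 183 and 188 CPM summed over 4 Y-linked genes against 0.236 to 0.501 in the other 7 libraries, among them MSC-EVs replicate 3. The labels give no sex. This split and depth both run inside the MSC-EVs group. As no WT or NS library had such Y-linked expression, the split also lies partly between MSC-EVs and each of the other groups.

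Per unit of length, the 43 genes spanned a wide range of levels. In WT, 6 genes had a mean of at least 10 FPKM, the unit that takes gene length and depth into account, 15 had 1 to under 10 and 22 had less than 1. Cdkn1b, the inhibitor p27 that holds cells out of division, led with 43.5 ± 0.388 FPKM (SD, n = 3), next to Pcna, the sliding clamp of replication and repair, with 42.8 ± 1.21, and these means differed by less than 1 SD of Pcna. Then came Ccnd3 with 29.1 ± 1.18 FPKM and Cdk4 with 16.6 ± 0.721. At the other end stood Mki67, the proliferation antigen Ki-67, with 0.00333 ± 0.00577 FPKM, and Aurkb, the kinase of the chromosomal passenger complex, listed at 0 in each WT library. In NS retinas 16 of the 43 genes had a mean under 1 FPKM, and in MSC-EVs retinas 19.

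**Figure D1:**
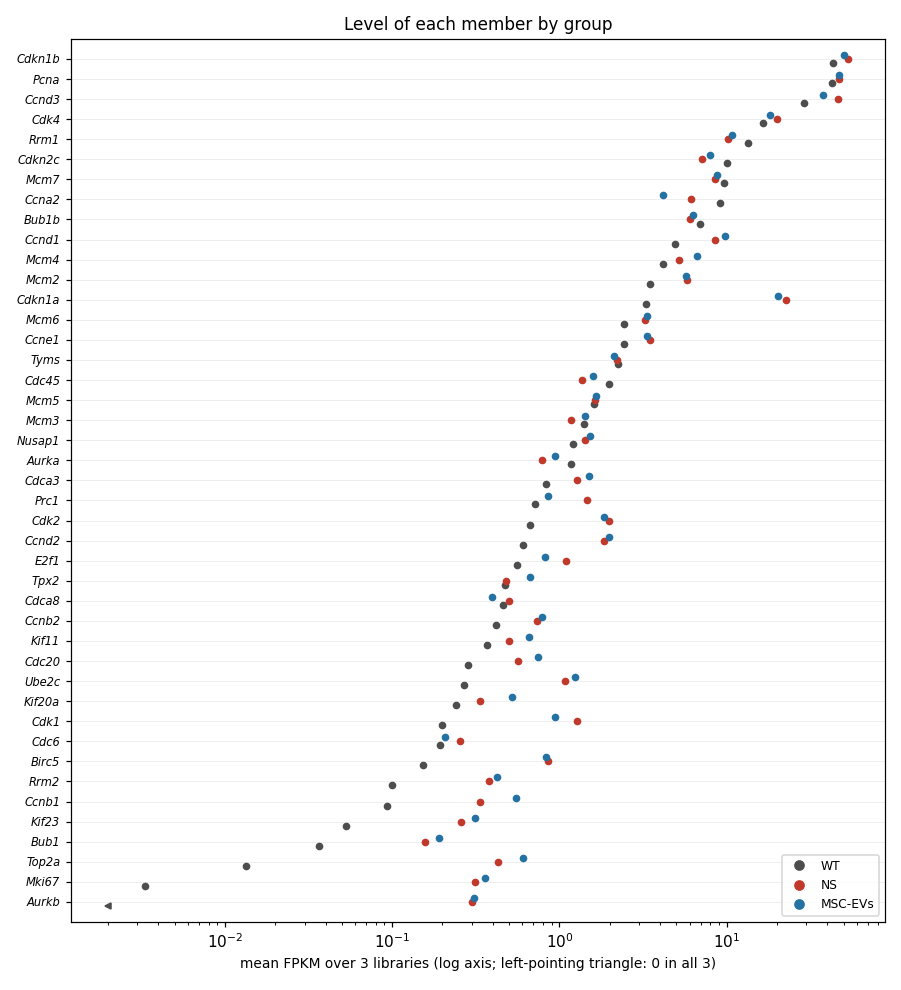
Mean FPKM of each of the 43 genes (log axis) over the 3 libraries of WT, NS and MSC-EVs, ordered by the WT mean; a triangle marks a gene at 0 in all 3 libraries. The genes at the bottom, from Birc5 down, lay well to the right in both rd10 groups, and most genes in the upper part had 3 points close together, Cdkn1a being the clearest exception.

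In NS against WT retinas, the changes were uneven across the cycle. Mitotic genes that were close to silent in WT, such as Mki67, Top2a and Cdk1, were 45, 26.3 and 7.78 times as high in NS. The inhibitor Cdkn1a rose 6.07-fold, and the D-type cyclin Ccnd2 and Cdk2 3.08-fold and 2.62-fold, while most replication genes moved little and the mitotic cyclin Ccna2 fell. Of the 43 genes, 40 passed the filter on low counts, and 15 of these were higher and 6 lower at an adjusted p under 0.05 by edgeR's quasi-likelihood test with Benjamini-Hochberg adjustment over all genes. Over all 14644 genes tested the same rule called 61.3%, with 31.2% higher and 30.1% lower, so a call was no more common among these genes than among genes at large. With a log2 fold change of at least 1 required as well ("differentially expressed" below), 11 were higher and none lower, against 9.16% and 3.56% of all genes (12.7% in all). The libraries did not overlap for 17 genes that were higher and 5 that were lower in NS, where 33.6% and 33.4% of all genes (66.9% in all) did not. The median log2 fold change was 0.28 over the 40 genes and 0.01 over all genes. Of the 40, 6 passed the filter through the NS libraries alone, with no WT library over the filter's minimum of 0.438 CPM. These were Rrm2, Mki67, Top2a, Cdk1, Birc5 and Kif23, all among the 11 differentially expressed genes. Such genes could only be higher in NS, so the direction of their calls was fixed by the filter. In a whole retina, fewer cells of a type and less RNA per cell cannot be told apart.

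**Figure D2:**
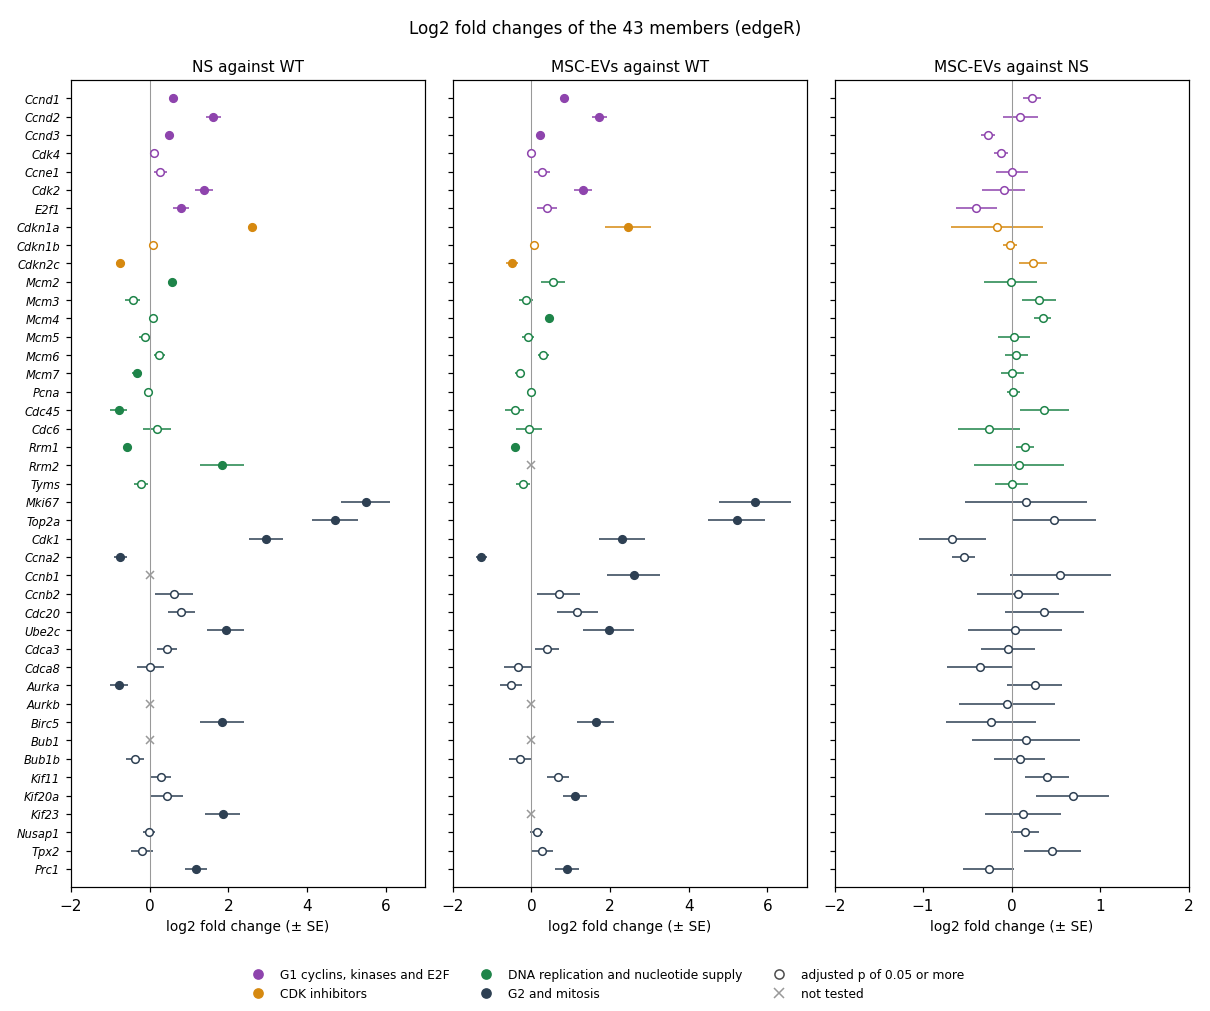
Log2 fold change of each of the 43 genes (points) with its standard error (bars) from edgeR, in NS against WT, MSC-EVs against WT and MSC-EVs against NS; colours give the role, filled points an adjusted p under 0.05 and crosses genes that were not tested. The x axis of the right panel is narrower, and no point in it is filled. The panels share libraries and are not independent of each other.

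Among the 7 G1 genes, 5 were higher in NS and none was lower, where 31.2% and 30.1% of all genes were. Ccnd2, a D-type cyclin that partners Cdk4 and Cdk6, measured 3.10, 3.89 and 3.06 CPM in the WT libraries and 11, 12.1 and 7.82 in the NS libraries. Every NS library was above every WT library, and the log2 fold change was 1.62 (SE 0.19, adjusted p = 1.31e-05). Cdk2, the kinase of the G1/S transition, measured 1.48, 1.79 and 1.80 CPM in WT and 3.85, 3.72 and 5.81 in NS, a log2 fold change of 1.39 (SE 0.23, adjusted p = 0.000233). Ccnd1, the cyclin most tied to growth signals, rose less, from 20.7, 19.4 and 19.9 CPM to 30.0, 32.3 and 28.5, a log2 fold change of 0.60 (SE 0.08, adjusted p = 4.88e-05). Neither gene's groups overlapped. Ccnd3, which has the highest level of the 3 D-type cyclins in FPKM, measured 49.3, 51.1 and 54.8 CPM in WT and 77.6, 69.8 and 71.6 in NS, a log2 fold change of 0.50 (SE 0.07, adjusted p = 4.42e-05). E2f1, the transcription factor that opens S phase, measured 1.71, 1.70 and 1.55 CPM in WT and 2.90, 3.03 and 2.74 in NS, a log2 fold change of 0.80 (SE 0.21, adjusted p = 0.00501). The groups of these genes were apart as well. The remaining G1 genes did not pass the test: Cdk4, the partner of the D-type cyclins, had a log2 fold change of 0.10 (SE 0.07) and Ccne1, the cyclin of Cdk2, 0.27 (SE 0.17). Exons of Ccnd1 and Cdk4 share 23.4% and 19.7% of their bases with a gene on the other strand (LTO1 and Tspan31), and without a stated strand setting reads there cannot be assigned.

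The 3 inhibitors moved in 3 different ways. Cdkn1a, the p53 target p21 that blocks cyclin-dependent kinases, measured 6.01, 6.94 and 7.12 CPM in WT and 38.3, 45.0 and 38.8 in NS. The NS libraries lay close together and far above WT, a log2 fold change of 2.6 (SE 0.10, adjusted p = 2.15e-09), which per length took it from 3.29 to 22.5 FPKM. Cdkn2c, the inhibitor p18 of Cdk4 and Cdk6, fell by 0.74 on the log2 scale (SE 0.12, adjusted p = 0.000155), from 13.1, 13.8 and 16.3 CPM to 8.31, 9.39 and 8.19. Cdkn1b had a log2 fold change of 0.08 (SE 0.06, adjusted p = 0.24) and libraries that overlapped.

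**Figure D3:**
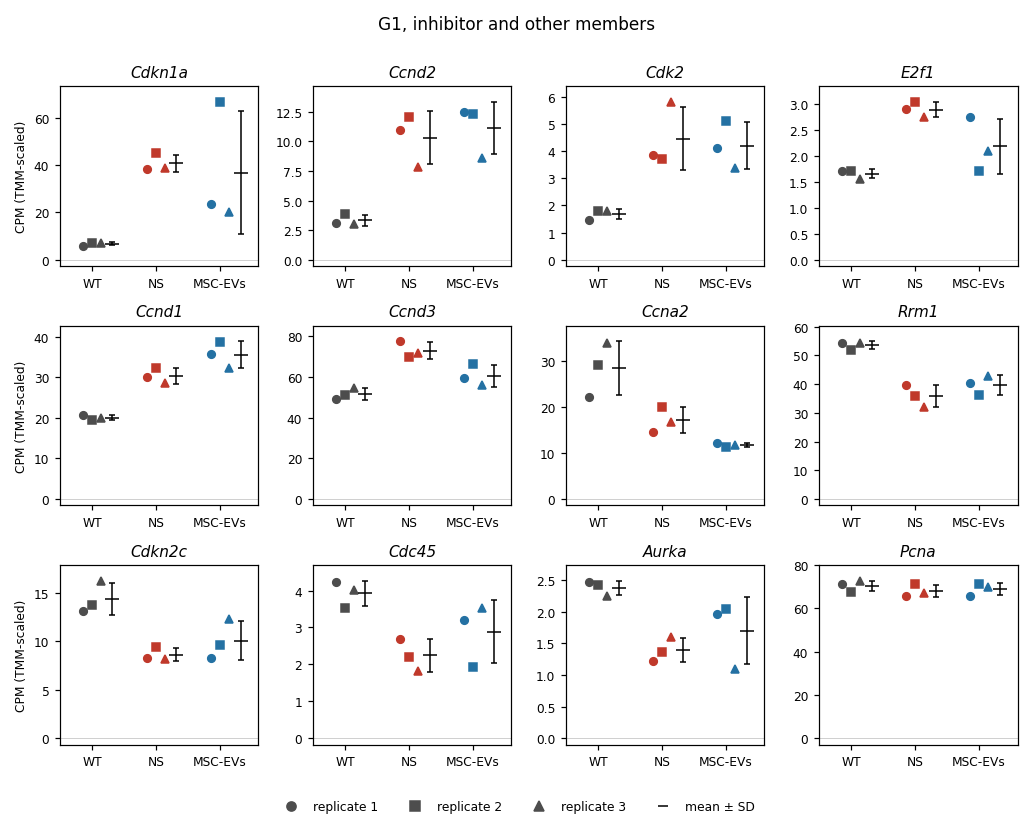
CPM of 12 G1, inhibitor, replication and mitosis genes in each library (points, by replicate) with the mean and SD of each group (bars), on linear axes. Cdkn1a rose in every rd10 library and was uneven within MSC-EVs (20.0 to 66.6 CPM); Ccna2, Rrm1 and Cdkn2c were lower in all 6 rd10 libraries than in WT, and Pcna was level.

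Of the 12 replication genes, 2 were higher, 3 lower and 7 did not pass the test, a median log2 fold change of -0.08. Both shares were below the 31.2% higher and 30.1% lower of all genes. The 6 subunits of the MCM helicase, which opens the DNA at origins as a ring of all 6, did not move as one. Mcm2 measured 12.5, 12.2 and 13.2 CPM in WT and 17.9, 21 and 17.2 in NS, a log2 fold change of 0.56 (SE 0.10, adjusted p = 0.000428), though its adjusted p was 0.105 when all 9 libraries were fitted together. Mcm7 measured 20.0, 15.6 and 18.5 CPM in WT and 14.9, 12.5 and 15.9 in NS. Its libraries overlapped, the log2 fold change was -0.32 (SE 0.12, adjusted p = 0.031), and the call was lost in 5 of 15 alternative settings. Mcm3, Mcm4, Mcm5 and Mcm6 did not pass the test, with log2 fold changes from -0.43 to 0.25. Pcna was level, at 71.0, 67.5 and 72.4 CPM in WT and 65.7, 71.3 and 67.2 in NS, and its interval of the log2 fold change ran from -0.18 to 0.08.

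The 2 subunits of ribonucleotide reductase, the enzyme that makes deoxynucleotides, went opposite ways. Rrm1, the large and long-lived subunit, measured 54.4, 51.9 and 54.3 CPM in WT and 39.6, 35.8 and 32.1 in NS, and fell by 0.58 on the log2 scale (SE 0.08, adjusted p = 6.31e-05). Rrm2, the small subunit made in S phase, measured 0.135, 0.0895 and 0.451 CPM in WT (3, 2 and 9 counts) and 0.810, 1.08 and 0.503 in NS (24, 22 and 11 counts). The log2 fold change was 1.84 (SE 0.55, adjusted p = 0.0118), and it did not pass without WT replicate 1 or without WT replicate 2 (adjusted p up to 0.0575). Cdc45, which joins the MCM ring to form the active helicase, measured 4.22, 3.54 and 4.01 CPM in WT and 2.70, 2.20 and 1.83 in NS, with no overlap and a log2 fold change of -0.79 (SE 0.21, adjusted p = 0.00556). Cdc6, which loads the MCM ring, and Tyms, which makes thymidylate, did not pass the test (0.19, SE 0.35, and -0.22, SE 0.18).

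The largest changes lay in G2 and mitosis, where 7 of the 18 tested genes were higher, 2 lower and 9 did not pass. Of all genes 31.2% were higher and 30.1% lower. Among the higher mitotic genes, Mki67, Top2a, Cdk1, Birc5 and Kif23 passed the filter through the NS libraries alone, so only a call in this direction was open to them. Mki67 had 1, 2 and 1 counts in the WT libraries and 99, 90 and 29 in the NS libraries. In CPM this was 0.0449 to 0.0895 against 3.34, 4.40 and 1.33, with NS replicate 3 the lowest of its group. The edgeR log2 fold change was 5.49 (SE 0.63, adjusted p = 2.15e-05), and the ratio of the summed counts, scaled for library size, was 48.9 with an exact 95% interval of 18.8 to 181.0 that covers counting error only. Top2a, the topoisomerase that untangles sister chromatids, was read at 2, 3 and 0 counts in WT libraries, against 82, 50 and 27 in NS (2.77, 2.45 and 1.24 CPM in NS). Its log2 fold change was 4.72 (SE 0.58, adjusted p = 2.19e-05) and its ratio 28.6 (12 to 89.1). Cdk1, the kinase that triggers mitosis, measured 0.314, 0.224 and 0.0501 CPM in WT (7, 5 and 1 counts) and 1.82, 1.66 and 1.28 in NS (54, 34 and 28 counts), a log2 fold change of 2.96 (SE 0.44, adjusted p = 0.000104). For these 3 genes every NS library was above every WT library, and the calls held in each of 14 alternative settings that could test them.

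The other mitotic genes that rose had smaller log2 fold changes, from 1.17 to 1.93. Ube2c, the ubiquitin-conjugating enzyme that serves the anaphase-promoting complex, measured 0.135, 0.224 and 0.501 CPM in WT and 1.52, 0.880 and 0.778 in NS, a log2 fold change of 1.93 (SE 0.48, adjusted p = 0.00415). Kif23, the kinesin of the central spindle, measured 0.180, 0.224 and 0.150 CPM in WT and 0.574, 0.734 and 0.778 in NS, a log2 fold change of 1.86 (SE 0.44, adjusted p = 0.00297). Prc1, which bundles the microtubules of the same structure, measured 0.987, 0.761 and 0.902 CPM in WT and 1.62, 2.45 and 1.97 in NS, a log2 fold change of 1.17 (SE 0.28, adjusted p = 0.00311). None of these overlapped between the groups. Birc5, or survivin, of the chromosomal passenger complex, measured 0.180, 0.269 and 0.401 CPM in WT and 0.608, 1.91 and 0.640 in NS. Replicate 2 stood far above the other NS libraries, and the log2 fold change of 1.85 (SE 0.56, adjusted p = 0.0125) did not pass without it or without WT replicate 1 (adjusted p up to 0.065). Some 16.0% of the 50-base stretches of Ube2c transcripts also occur in another gene's transcripts, against 0.7%, 1.1% and 0% for Mki67, Top2a and Cdk1.

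Aurkb, Bub1 and Ccnb1 were too low for the filter in NS against WT. Aurkb had no count in any WT library and 16, 14 and 9 counts in NS. Against a floor of 3 counts in each WT library this was at least 3.90-fold higher in NS. Bub1, a kinase of the spindle checkpoint, was read at 3, 2 and 4 counts in WT libraries, against 15, 14 and 8 in NS, a ratio of 3.69 (1.75 to 8.70). Ccnb1, the cyclin of Cdk1, gave 2, 7 and 2 counts in WT, against 30, 16 and 7 in NS, a ratio of 4.33 (2.23 to 9.18); as CPM its lowest NS library (0.32) was just above its highest WT library (0.313). In the fit without a filter all 3 were higher, with adjusted p of 0.000122, 0.0165 and 0.0089.

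**Figure D4:**
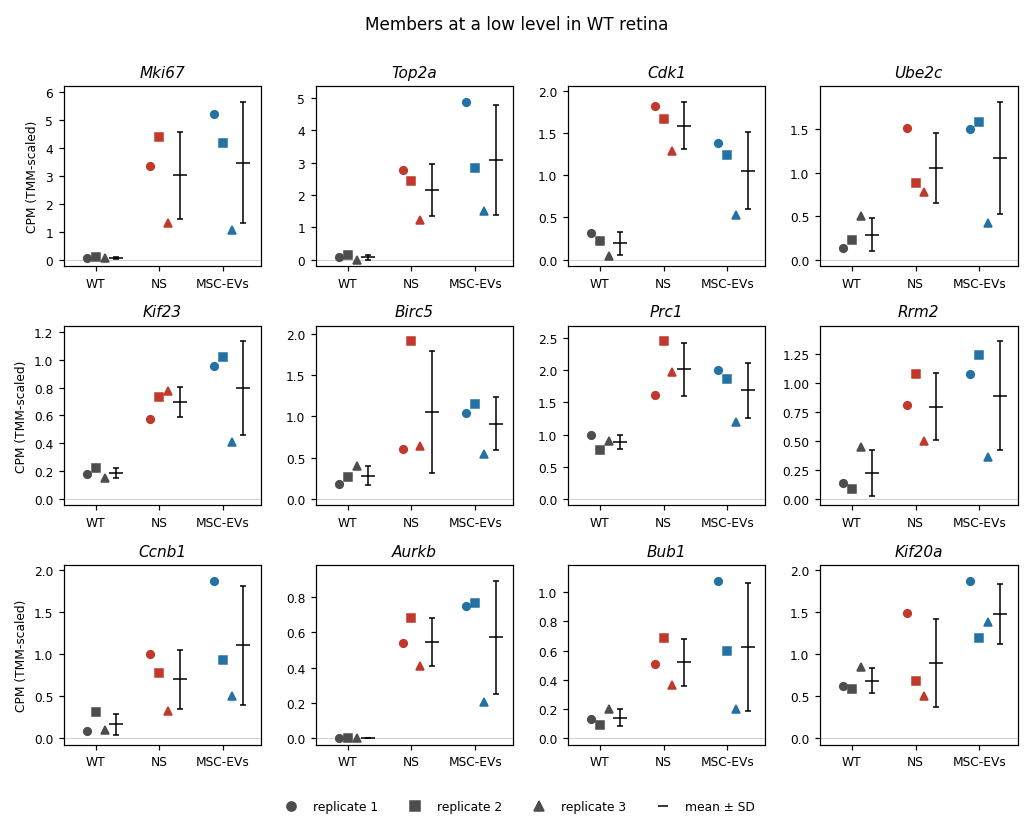
CPM of 12 genes at a low level in WT retina, in each library (points, by replicate) with the mean and SD of each group (bars), on linear axes. NS lay above WT for most of them, and replicate 3 of MSC-EVs (triangle) was the lowest MSC-EVs point in 11 of the 12 panels, Kif20a being the exception.

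The 2 mitotic genes that fell were not near 0 in WT. Ccna2, the cyclin of S phase and G2, measured 22.2, 29.1 and 33.9 CPM in WT and 14.6, 20.1 and 16.7 in NS, with no overlap and a log2 fold change of -0.74 (SE 0.16, adjusted p = 0.00296). Aurka, the kinase of the spindle poles, measured 2.47, 2.42 and 2.25 CPM in WT and 1.22, 1.37 and 1.60 in NS, again apart, with a log2 fold change of -0.78 (SE 0.23, adjusted p = 0.011). Bub1b, a spindle checkpoint protein, was nearly as high as Ccna2 at 30.9, 20.1 and 31.5 CPM in WT, and its log2 fold change of -0.37 (SE 0.23) did not pass. The 7 mitotic genes that rose had 0 to 22 counts in a WT library, and the 2 that fell had 45 to 677. The 9 that did not pass had 6 to 689 counts, and among them Ccnb2, Cdc20, Cdca3, Kif11 and Kif20a had log2 fold changes of 0.28 to 0.81, while Cdca8, Nusap1 and Tpx2 were between -0.20 and 0.02. Ccna2 and Bub1b made up most of the group's RNA: with them the 21 genes summed to 65.7 to 83.0 CPM in WT and 57.5 to 72.4 in NS, and without them, a split chosen after their values were seen, to 16.5 to 18.3 in WT and 30.8, 33.4 and 23.4 in NS.

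The mitotic genes shared sequence features that the choice of genes did not use. The promoters are shown because most mitotic windows carry the same pair of elements, whether or not the gene rose. RefSeq promoter windows of 300 bases (250 before and 50 after a transcript's start, build GRCm38.p6) were matched by symbol for 36 of the 43 genes, with 41 windows in all; Ccnd1, Ccnd2, Ccna2, Aurkb, Mcm4, Tpx2 and Kif20a had no window. Both strands were searched for CCAAT, for TTTGAA or TTCGAA (forms of the CHR element) and for TTTNNCGC (a form of the E2F site), and matches may share bases. CCAAT was found in 88.9% of the 18 mitotic windows, against 37.4% of all 32851 windows. TTTGAA or TTCGAA was found in 83.3% of the mitotic windows and 19.2% of all, and both elements together in 83.3% and 7.5%. The E2F form was found in 6 of the 12 replication windows, in 5.6% of the mitotic ones and in 5.2% of all. The pair did not sort the mitotic genes by their response, since it was found in 87.5% of the 8 windows of genes that rose and in 85.7% of the 7 windows of genes that did not pass. The 8 windows came from 7 genes, as Prc1 had 2 that overlap. Birc5, a mitotic gene that rose, had no match to any of the motifs and is not printed below. A match of letters is a description and not a site shown to be bound.

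In the windows below capitals mark every match to one of the searched motifs on either strand. They are the 3 mitotic genes that rose most, with Ube2c, then Aurka, a mitotic gene that fell, and last the 2 subunits of ribonucleotide reductase.
Mki67 (chr7:135716330-135716629, minus strand): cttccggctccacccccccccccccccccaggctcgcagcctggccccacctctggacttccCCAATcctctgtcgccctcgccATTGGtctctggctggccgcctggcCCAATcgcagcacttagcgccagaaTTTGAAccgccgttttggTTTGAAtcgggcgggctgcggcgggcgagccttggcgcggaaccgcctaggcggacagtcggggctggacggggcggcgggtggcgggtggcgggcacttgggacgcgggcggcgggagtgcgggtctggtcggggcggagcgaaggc
Top2a (chr11:99024140-99024439, minus strand): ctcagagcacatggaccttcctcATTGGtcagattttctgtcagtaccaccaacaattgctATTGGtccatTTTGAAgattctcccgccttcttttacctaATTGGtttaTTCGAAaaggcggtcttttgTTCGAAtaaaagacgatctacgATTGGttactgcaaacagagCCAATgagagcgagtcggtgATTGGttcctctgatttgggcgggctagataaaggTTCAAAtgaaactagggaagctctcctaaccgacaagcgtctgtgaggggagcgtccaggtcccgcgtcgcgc
Cdk1 (chr10:69352863-69353162, minus strand): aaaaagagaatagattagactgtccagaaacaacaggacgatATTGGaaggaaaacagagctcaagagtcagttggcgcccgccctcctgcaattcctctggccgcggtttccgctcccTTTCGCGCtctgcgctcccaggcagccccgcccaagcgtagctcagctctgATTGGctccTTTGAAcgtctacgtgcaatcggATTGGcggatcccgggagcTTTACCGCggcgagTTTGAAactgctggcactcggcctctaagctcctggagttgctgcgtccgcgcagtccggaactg
Ube2c (chr2:164769679-164769978, plus strand): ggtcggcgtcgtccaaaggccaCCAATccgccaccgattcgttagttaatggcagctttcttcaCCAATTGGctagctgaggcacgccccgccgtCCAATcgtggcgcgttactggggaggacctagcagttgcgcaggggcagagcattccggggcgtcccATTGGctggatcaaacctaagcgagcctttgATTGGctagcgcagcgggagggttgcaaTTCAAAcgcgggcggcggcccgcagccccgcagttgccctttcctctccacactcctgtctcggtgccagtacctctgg
Aurka (chr2:172370521-172370820, minus strand): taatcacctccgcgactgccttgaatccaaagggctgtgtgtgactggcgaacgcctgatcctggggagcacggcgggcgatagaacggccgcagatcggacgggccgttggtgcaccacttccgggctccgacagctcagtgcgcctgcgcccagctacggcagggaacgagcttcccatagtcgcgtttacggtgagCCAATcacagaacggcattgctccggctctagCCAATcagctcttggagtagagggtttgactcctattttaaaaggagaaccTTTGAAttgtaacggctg
Rrm1 (chr7:102441445-102441744, plus strand): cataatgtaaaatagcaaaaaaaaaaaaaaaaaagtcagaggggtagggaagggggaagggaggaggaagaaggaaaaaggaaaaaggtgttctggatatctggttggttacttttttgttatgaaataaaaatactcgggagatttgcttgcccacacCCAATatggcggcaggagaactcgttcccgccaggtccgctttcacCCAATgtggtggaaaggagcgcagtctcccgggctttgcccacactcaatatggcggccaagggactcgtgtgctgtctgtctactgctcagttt
Rrm2 (chr12:24708004-24708303, plus strand): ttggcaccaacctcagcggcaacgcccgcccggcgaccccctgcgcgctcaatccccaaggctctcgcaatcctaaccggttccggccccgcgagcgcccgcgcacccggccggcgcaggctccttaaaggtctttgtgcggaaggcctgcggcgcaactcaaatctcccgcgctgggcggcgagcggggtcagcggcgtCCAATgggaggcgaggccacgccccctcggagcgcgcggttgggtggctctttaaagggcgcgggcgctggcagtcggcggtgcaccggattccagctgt
The CCAAT and CHR matches numbered 3 and 2 in Mki67, 6 and 4 in Top2a, 3 and 2 in Cdk1, 6 and 1 in Ube2c and 2 and 1 in Aurka, although Aurka fell where the others rose. Rrm1 and Rrm2, which went opposite ways, hold 2 and 1 CCAAT matches, and neither holds a CHR match.

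Markers of several cell types also differed between NS and WT. The 14 microglia and macrophage markers summed to 93.8 to 98.7 CPM in WT and to 709, 644 and 577 in NS, all 14 were higher in NS, and none was at 0 in any group. The 6 markers of infiltrating leukocytes summed to 0.0501 to 0.179 CPM in WT and to 10.1, 4.01 and 3.11 in NS. Most of the NS sums was Ly6c2 (7.56, 2.3 and 1.51 CPM) and Ccr2 (1.86, 1.22 and 0.686 CPM), the only 2 of the list tested. No WT library was over the filter's minimum for either gene, so both could only be higher in NS. S100a8, S100a9 and Cd3e had no count in WT, but S100a8 had none in NS replicate 1 either and Cd3e none in NS replicate 2. Cd79a had a mean of 0.0466 CPM in WT and 0.0388 in NS. NS replicate 3 had the lowest sum of the microglia and leukocyte lists and also the lowest level of its group in 14 of the 21 mitotic genes. It was lowest in the rod list as well (15300 CPM against 18600 and 21900). The highest library differed: it was NS replicate 1 for the microglia and leukocyte lists and NS replicate 2 for the 19 mitotic genes without Ccna2 and Bub1b (30.8, 33.4 and 23.4 CPM). Endothelial and pericyte markers were higher for 11 of 13 genes and Müller glia markers for 7 of 8, whereas all 10 rod markers were lower. Of all genes 31.2% were higher and 30.1% lower. The 8 retinal progenitor markers summed to 22.0 to 23.4 CPM in WT and 19.6 to 22.2 in NS, with 1 higher and 1 lower of the 6 tested. The part of these cell types in the values of the cell cycle genes was not tested.

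**Figure D5:**
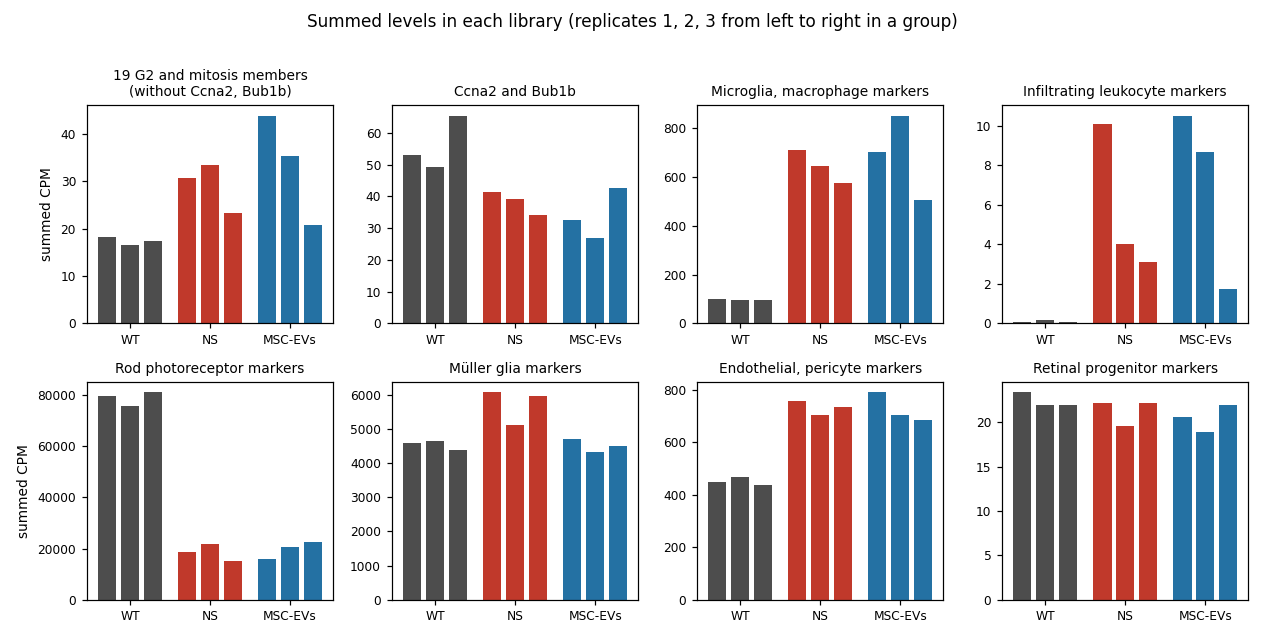
Summed CPM in each of the 9 libraries (bars, replicates 1 to 3 from left to right) for 19 mitotic genes without Ccna2 and Bub1b, for those 2 genes, and for 6 lists of cell type markers. The 19 genes and the microglia and leukocyte lists were higher in rd10 libraries and lowest there in replicate 3 of each group, and the sum of Ccna2 and Bub1b and the rod list were lower in every rd10 library than in WT.

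The next comparison asks whether these genes differed between vesicle-treated and saline-treated rd10 retinas. Y-linked expression was high in MSC-EVs libraries 1 and 2 and in no NS library, so it and the treatment cannot be fully told apart. No gene of the 43 passed an adjusted p of 0.05 in MSC-EVs against NS by edgeR, and 4 had an unadjusted p under 0.05. None passed with the fold required as well, by edgeR or by DESeq2. Over all 14765 genes tested 1.16% passed (0.914% higher and 0.251% lower), 0.061% with the fold required (0.0542% higher and 0.00677% lower), and 20.2% had an unadjusted p under 0.05. The median log2 fold change was 0.05 over the 43 genes and 0 over all genes, with a range of -0.67 to 0.69. DESeq2's Wald test called 1 gene (Ccna2), the fit of all 9 libraries 2 (Mcm4 and Ccnd3), and the fit without MSC-EVs replicate 2 also 2 (Cdkn1a and Ccnd3). Over all genes these settings called more as well: 947 of 14765, 1026 of 14908 and 676 of 14908 in the same order, against 172 of 14765.

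The 4 genes with an unadjusted p under 0.05 were Ccna2, Mcm4, Ccnd3 and Ccnd1. Ccna2 measured 12.1, 11.3 and 11.7 CPM in MSC-EVs, all below the NS libraries (14.6, 20.1 and 16.7), which were themselves below WT. Its log2 fold change was -0.54 (SE 0.13, 95% interval -0.82 to -0.25, adjusted p = 0.0726 by edgeR and 0.0147 by DESeq2). Some 12.5% of its exonic bases overlap Exosc9 on the other strand. Ccnd3 measured 59.4, 66.2 and 55.9 CPM in MSC-EVs, below NS and still above WT, a log2 fold change of -0.27 (-0.45 to -0.09, adjusted p = 0.116). Mcm4 measured 24.0, 20.2 and 21.4 CPM in MSC-EVs against 18.1, 16.6 and 16.7 in NS, a log2 fold change of 0.35 (0.13 to 0.57, adjusted p = 0.0997). Ccnd1 measured 35.8, 38.7 and 32.2 CPM in MSC-EVs, where one library fell within the NS range, a log2 fold change of 0.23 (0.02 to 0.45, adjusted p = 0.209). Of all 43 genes, 2 had MSC-EVs libraries that were all higher than NS (Mcm3 and Mcm4) and 3 all lower (Ccna2, Ccnd3 and Cdk4), where 12.9% of all genes were all higher and 13.3% all lower (26.2% in all).

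For Mki67, Top2a and Cdk1 the libraries of the MSC-EVs group were far apart, and the intervals of the difference were wide. Mki67 had 125, 98 and 67 counts, which at their depths were 5.21, 4.18 and 1.05 CPM. These span the NS values on both sides. The log2 fold change was 0.16 with a 95% interval of -1.54 to 1.86, and its sign turned in 4 of 15 settings. Top2a measured 4.88, 2.85 and 1.5 CPM (log2 fold change 0.48, interval -0.62 to 1.58) and Cdk1 1.38, 1.24 and 0.531 CPM (-0.67, interval -1.53 to 0.19). MSC-EVs replicate 3 had the lowest CPM of its group in 18 of the 21 mitotic genes. It was also the deepest library, the one of the 3 without Y-linked expression, and the lowest in the microglia list (504 CPM against 704 and 851) and in the leukocyte list (1.75 against 10.5 and 8.65). These differences between single libraries cannot be told apart.

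Cdkn1a shows the same problem in another library. It measured 23.7, 66.6 and 20.0 CPM in MSC-EVs against 38.3 to 45.0 in NS, so that MSC-EVs replicate 2 lay above every NS library and the other two below. With all libraries the log2 fold change was -0.16 (interval -1.49 to 1.17), and without replicate 2 it was -0.90 with an adjusted p of 0.00385. Pcna measured 65.7, 71.1 and 70.0 CPM, with an interval of -0.13 to 0.18. No microglia marker of 14 was called in this comparison, nor any leukocyte marker of the 2 tested. Of the 8 Müller glia markers 1 was lower, Car14 (log2 fold change -0.51, adjusted p = 0.032), and 4 had MSC-EVs libraries that were all below NS, where 13.3% of all genes had. No tested marker on the other lists was called.

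In MSC-EVs against WT, which uses the same WT libraries as the first comparison, 14 of the 39 tested genes were higher and 3 lower, where 28.3% and 27.2% of all 14623 genes were (55.5% in all). Of these, 10 higher genes and 1 lower gene were differentially expressed, against 9% and 3.2% of all genes (12.2% in all). The libraries did not overlap for 13 higher and 5 lower genes, where 31.9% and 33.2% of all genes (65.1% in all) did not. Of the 39, 5 passed the filter through the MSC-EVs libraries alone (Mki67, Top2a, Cdk1, Ccnb1 and Birc5), and these could only be higher than WT. Mki67 and Top2a had log2 fold changes of 5.69 (SE 0.91) and 5.22 (SE 0.73), with adjusted p of 0.00143 and 0.000451. Ccnd2 measured 12.5, 12.3 and 8.63 CPM and Cdk2 4.13, 5.11 and 3.38 CPM, both above every WT library (log2 fold changes 1.73 and 1.31, adjusted p = 5.13e-05 and 0.000936). Cdk1, with 2.3, and Cdkn1a, with 2.45, were called as well (adjusted p = 0.00801 and 0.0199). Both calls were lost with Y-linked expression as a covariate (adjusted p of 0.0821 and 0.147), and that of Cdkn1a also when any single WT library was left out (up to 0.0665). With that covariate the group difference rests largely on MSC-EVs replicate 3, the only library of its group without Y-linked expression. The fits with it, here and below, cannot tell the covariate from that library. Rrm1 was at 40.3, 36.1 and 42.8 CPM and Cdkn2c at 8.30, 9.63 and 12.3 CPM, both below every WT library (log2 fold changes -0.42 and -0.49, adjusted p = 0.000904 and 0.0192). The call of Cdkn2c was lost in 5 of 16 settings, among them the fits without WT replicate 3 and without MSC-EVs replicate 1. E2f1, Mcm2, Mcm7, Cdc45 and Aurka, which were called in NS against WT, had log2 fold changes of 0.40, 0.55, -0.30, -0.42 and -0.52 here and did not pass (adjusted p = 0.195, 0.183, 0.0525, 0.159 and 0.145). A difference between the rd10 groups was not called for any of these 5 genes either. Rrm2 and Kif23, also called in NS against WT, were too low for the filter here, as were Aurkb and Bub1. Rrm2 measured 1.08, 1.24 and 0.36 CPM in MSC-EVs and overlapped WT, and Kif23 measured 0.959, 1.02 and 0.406. In edgeR's fit without a filter Rrm2, Kif23, Aurkb and Bub1 were each higher than WT (adjusted p = 0.0315, 0.00911, 0.00211 and 0.0348).

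Among the mitotic genes, Ccna2, at 11.3 to 12.1 CPM against 22.2 to 33.9 in WT, had a log2 fold change of -1.27 (SE 0.14, adjusted p = 7.8e-05). It was the only gene of the 43 to be lower and differentially expressed in any of the 3 comparisons by this test. Ccnb1 had 45, 22 and 32 counts (1.88, 0.937 and 0.5 CPM against 0.0898 to 0.313 in WT), a log2 fold change of 2.6 (SE 0.68, adjusted p = 0.00952). Kif20a, a kinesin of cytokinesis, measured 1.88, 1.19 and 1.38 CPM against 0.628, 0.582 and 0.852, a log2 fold change of 1.11 (SE 0.31, adjusted p = 0.0126). With the Y-linked covariate neither gene was called, and Kif20a was not called without WT replicate 2 or without MSC-EVs replicate 1 either (adjusted p up to 0.0851 for Ccnb1 and 0.0631 for Kif20a). Exons of Kif20a share 29.3% of their bases with Cdc23 on the other strand, and 23.4% of the 50-base stretches of Ccnb1 occur in other genes. Birc5 measured 1.04, 1.15 and 0.547 CPM, all above WT, a log2 fold change of 1.63 (SE 0.47, adjusted p = 0.014). Its call was lost in 3 of 15 settings: the Y-linked covariate and the fits without WT replicate 1 or 2. Ube2c was called too (log2 fold change 1.96, adjusted p = 0.032), although MSC-EVs replicate 3, at 0.422 CPM, lay below the highest WT library, and the call was lost in 6 of 15 settings, among them the fits without WT replicate 1 or 2 and without MSC-EVs replicate 1 or 2. The number of genes called was 26 without MSC-EVs replicate 3 and 9 with Y-linked expression as a covariate, against 17 with all libraries and no covariate. Over all genes the same fits called 8426 of 14848, 6007 of 14623 and 8117 of 14623.

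Other genes of the same pathways were read from lists of 100 genes. In NS against WT, 21 of the 86 tested were higher and 22 lower, and 10 and 2 were differentially expressed. Over all genes 31.2% were higher and 30.1% lower, and 9.16% and 3.56% differentially expressed, and the 21 and 22 genes are no larger shares of the 86 than these. Of 30 tested mitosis genes outside the 43, 4 were higher and 7 lower, both below those shares. Kif2c, a microtubule-depolymerising kinesin, gave 2, 1 and 3 counts in WT, against 21, 15 and 16 in NS (log2 fold change 2.89, SE 0.51, adjusted p = 0.000403). Mad2l1, the checkpoint protein Mad2, measured 32.1, 27.7 and 31.4 CPM in WT and 14.6, 15 and 15 in NS, a log2 fold change of -1.03 (SE 0.08, adjusted p = 6.81e-07). Kif18b, a mitotic kinesin, rose from 2, 2 and 4 counts to 23, 15 and 19 (2.62, SE 0.48), and Kif15, another, fell by 1.03 on the log2 scale from 1.93, 3.18 and 3.31 CPM. Kif2c and Kif18b had no WT library over the filter's minimum of 0.438 CPM, so only a higher call was open to them. Of 25 tested replication genes, 4 were higher and 11 lower, below the 31.2% and above the 30.1% of all genes, with Cdt1, a licensing factor, Uhrf1 and Chaf1b among the higher ones (log2 fold changes 1.06, 1.92 and 1.61).

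Of 16 further G1 genes tested, 8 were higher and 3 lower (median log2 fold change 0.28), where 31.2% and 30.1% of all genes were. Myc, the growth-promoting transcription factor, led with 0.942, 0.492 and 0.952 CPM in WT and 4.66, 3.62 and 3.80 in NS (log2 fold change 2.34, SE 0.27, adjusted p = 1.28e-05). Cdkn2b, the inhibitor p15, had a log2 fold change of 1.99 (SE 0.37). Of 15 tested p53 targets, the pathway to which Cdkn1a belongs, 5 were higher and 1 lower (median 0.12), a share of higher calls near that of all genes. Eda2r, a receptor of the TNF family, gave 0, 0 and 2 counts in WT, against 51, 18 and 18 in NS, and Pmaip1 (Noxa) and Phlda3 had log2 fold changes of 1.84 and 1.35. Eda2r had no WT library over the filter's minimum of 0.438 CPM either, so it could only be higher. Mdm2, Ccng1 and Bax, classical targets that were picked out after their values were seen, did not pass (-0.01, -0.13 and 0.20). In MSC-EVs against NS none of the 92 tested genes was called by edgeR, 12 had an unadjusted p under 0.05, and DESeq2 called 2, Spc25 and Sesn1. In MSC-EVs against WT 14 of 84 were higher and 24 lower, 7 and 5 of them differentially expressed, where 28.3% and 27.2% of all genes were higher and lower and 9% and 3.2% differentially expressed.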

How the data were processed

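RNA of whole retinas (oligo(dT)-enriched, made into libraries with random primers) had been sequenced in 9 libraries, 3 each of WT, NS and MSC-EVs. The submitters' processing notes name fastp, Bowtie2, HISAT2, StringTie 1.3.1 and RSEM, with no order or role; the genome build and the strand setting of the counting are not given in the sources used here. For each library the authors deposited FPKM values and expected counts of genes; decimals occur in 9.2% to 11.7% of the genes of a library. The sums of the counts give the depth per library, and intervals on ratios of summed counts cover counting error only.

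The expected counts were rounded to whole numbers, since the design had assumed counts, and tested with edgeR 4.0.16 (R 4.3.3): filterByExpr, TMM factors, the robust quasi-likelihood fit and Benjamini-Hochberg adjustment over all genes tested, for each pair of groups on its own 6 libraries. CPM values are counts scaled by library size and TMM factor. A gene rose or fell at an adjusted p under 0.05, and was differentially expressed where its log2 fold change also reached 1 in size. The alternatives were DESeq2 1.42.0 size factors, upper-quartile factors, DESeq2's Wald test, no filter, a minimum of 10 counts per library, a single fit of all 9 libraries, limma 3.58.1 on log2(FPKM + 1) and log2(FPKM + 0.1), the replicate number as a block, a Y-linked covariate for MSC-EVs, and leaving out each library. The fits were tested on simulated data. Fold changes on the log2(FPKM + pseudocount) scale understate the change of low genes.

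The members and lists were chosen with earlier results of these data known. Values in every library are given, in the text or a figure, for Mki67, Top2a, Cdk1, Pcna, Ccnd1 and Cdkn1a and for each member that was differentially expressed in a comparison. For the 8 largest changes per role among those called in NS against WT, the values cover at least the WT and NS libraries. Of the other pathway lists, up to 10 differentially expressed genes per comparison could be named. Of the marker lists, the sums ran from 54.2 to 62.7 CPM in WT and 219 to 522 in rd10 for astrocytes, 57.7 to 93.9 over all libraries for erythrocytes, 41.5 to 194 for retinal pigment epithelium and 7.51 to 97.4 for lens and cornea. Gene overlap was read from the GENCODE annotation of GRCm38, promoters from RefSeq GRCm38.p6, without assuming that the counts used that build.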

Additional observations from a re-analysis of the deposited data

How the results depend on the processing

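In NS against WT no named gene changed direction under any alternative: 298 values (1 per gene and setting) kept their call and 10 lost it. In MSC-EVs against WT 229 kept it and 37 lost it, and none reversed. The count of members with a log2 fold change of at least 1 moved from 11 to 4 in NS against WT, and from 11 to 5 in MSC-EVs against WT, with at least 10 counts required in every library, a filter that removes the genes near 0 in WT. On log2(FPKM + 1), a scale that shrinks low genes, it was 1 in both; for the other pathway genes the corresponding counts moved from 12 to 6 and 2 in NS against WT and to 2 in MSC-EVs against WT.

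In MSC-EVs against NS the members called, 0 in the reported fit, were 1 with DESeq2's Wald test, 2 with all 9 libraries in one fit, and 0 to 2 when 1 library was left out, the 2 being called without MSC-EVs replicate 2. The other pathway genes, also 0, were 2 with the Wald test, 2 with all 9 libraries, 2 with the replicate block, and 0 to 2 without 1 library (0 to 1 with the fold required). Over all genes the calls were 172 in the reported fit, 947 with the Wald test and 1026 with all 9 libraries. They were 403 with the replicate block and 0 to 676 without 1 library. The signs that reversed were all in this comparison and all of genes that were not called. Mki67 (0.16) became -1.51 with the Y-linked covariate, -0.18 without NS replicate 3, -0.27 without MSC-EVs replicate 1 and -0.03 without MSC-EVs replicate 2. Top2a (0.48) became -0.5 with the covariate and -0.02 without MSC-EVs replicate 1. Pcna (0.02) became -0.01 with upper-quartile factors and 0 without NS replicate 1. Cdkn1a (-0.16) became 0.08 without MSC-EVs replicate 1 and 0.15 without MSC-EVs replicate 3. Over the fits without 1 library, the values ran from -0.27 to 0.64 for Mki67, -0.02 to 0.84 for Top2a, 0 to 0.06 for Pcna and -0.9 to 0.15 for Cdkn1a. The values with the covariate rest largely on MSC-EVs replicate 3, so the covariate and that library cannot be told apart. The cause of these changes of sign was not tested.

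In MSC-EVs against WT the members called (17) were 11 with at least 10 counts in every library, 9 with the Y-linked covariate, and 13 to 26 without 1 library, the highest without MSC-EVs replicate 3. Over all genes (8117) the same settings called 7636, 6007 and 6517 to 8426, the highest again without MSC-EVs replicate 3. With the fold required (11) the members called were 5 with the covariate and 9 to 17 without 1 library. The other pathway genes (38) were 21 with the covariate; with the fold required (12) they were 19 without a filter, 19 with all 9 libraries, 6 with the covariate and 9 to 21 without 1 library. Called members that lost the call most often were Prc1 (9 of 16 settings), Ube2c (6 of 15), Ccnd3 and Cdkn2c (5 of 16 each) and Cdkn1a (4 of 16).

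The labels link libraries of different groups only by replicate number. Deviations of same-numbered libraries correlated at -0.06 to 0.03 for WT and NS, 0.09 to 0.27 for NS and MSC-EVs, and 0.02 to 0.08 for WT and MSC-EVs. Between libraries of different number the correlations were -0.05 to 0.1, -0.19 to 0 and -0.07 to 0.03 in the same order. Deviations within a group cancel out, so these values depend on each other. Whether same-numbered rd10 libraries came from littermates is not given. With the replicate number as a block the members called were 22, 0 and 19 in NS against WT, MSC-EVs against NS and MSC-EVs against WT, against 21, 0 and 17 without it. Over all genes the calls were 8971, 403 and 7919 with the block and 8972, 172 and 8117 without it. Depth limits the genes with few counts: 1 count was worth 0.0156 CPM in MSC-EVs replicate 3 and up to 0.0501 in WT replicate 3.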
